A study of Mus musculus with 8 samples.

Results

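Transcript assembly of RNA from mouse retinal organoids left many assembled loci without a gene name, and these unnamed loci are described here. A locus was taken when its name field was empty, its status was OK, and at least 1 condition of its table had an estimated count of 10 and a level of 1 FPKM, a count of fragments scaled by transcript length and library size. The rule gave 1262 of 4822 unnamed loci in the table that sets 1 h against 0 h, 1247 of 4904 in the 8 h table and 1306 of 4904 in the 24 h table, out of 35494 loci in the first table and 35541 in each of the other two. Over the 3 tables they occupied 2245 distinct positions. The organoids were grown from Rx:GFP cells, which carry a green fluorescent reporter at the eye field gene Rx (Rax), and in all groups both endogenous Mettl3 alleles encoded the FKBP12F36V-HA tag at the C-terminus. The tag is a degron: dTAG-13 brings the tagged METTL3 protein to a ubiquitin ligase for destruction. At day 6 of differentiation 4 groups of 2 samples were compared, an untreated group at 0 h and groups exposed to 125 nM dTAG-13 for 1, 8 and 24 h. The differentiation medium contained AGN at 0.1 µM in all groups, and the samples of a group went through separate library preparations. The labels do not say whether the 0 h samples received solvent, whether the line is a single clone, or whether the samples of a group were separate cultures.

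METTL3 is the catalytic subunit of the complex that writes N6-methyladenosine on RNA in the nucleus, and the mark is known for marking transcripts for processing and decay. Assembly builds transcript models from aligned reads, so it also yields models where the reference names no gene. Such models are commonly processed pseudogenes, which are copies of spliced mRNAs inserted back into the genome, long non-coding RNAs (lncRNAs), short-lived RNAs transcribed away from a promoter in the direction opposite to its gene, and RNA beyond the annotated end of a gene.

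Promoter sequences of 3 genes are shown because an unnamed locus ended within or just before each of them and was called lower at 8 h and at 24 h. Each run is the 250 bases before the RefSeq start (GRCm38), in the gene's 5′ to 3′ direction, and the capitals mark the bases that lie inside the unnamed locus. The windows are chr2:181864110-181864359 (plus strand) for Polr3k, chr4:132884459-132884708 (minus strand) for Stx12 and chr10:79854182-79854431 (plus strand) for Ptbp1.
Polr3k: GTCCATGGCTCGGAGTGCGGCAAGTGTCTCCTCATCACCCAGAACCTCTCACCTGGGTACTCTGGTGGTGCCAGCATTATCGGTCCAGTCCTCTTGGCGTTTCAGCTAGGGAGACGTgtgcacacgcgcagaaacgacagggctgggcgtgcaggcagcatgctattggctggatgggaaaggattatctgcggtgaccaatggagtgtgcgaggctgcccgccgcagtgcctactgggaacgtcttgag
Stx12: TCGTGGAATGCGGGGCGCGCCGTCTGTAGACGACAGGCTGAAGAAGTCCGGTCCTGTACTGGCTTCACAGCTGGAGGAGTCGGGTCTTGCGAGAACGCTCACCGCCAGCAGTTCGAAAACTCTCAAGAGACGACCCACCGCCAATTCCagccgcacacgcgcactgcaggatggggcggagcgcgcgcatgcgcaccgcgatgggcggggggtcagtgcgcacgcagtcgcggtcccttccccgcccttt
Ptbp1: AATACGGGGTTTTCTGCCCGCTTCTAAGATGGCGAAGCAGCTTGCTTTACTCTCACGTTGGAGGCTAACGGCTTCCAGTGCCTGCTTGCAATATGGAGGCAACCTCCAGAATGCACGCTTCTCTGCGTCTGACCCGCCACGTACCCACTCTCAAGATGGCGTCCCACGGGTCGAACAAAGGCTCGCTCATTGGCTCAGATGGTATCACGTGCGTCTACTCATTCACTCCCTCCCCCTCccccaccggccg
The locus covered 117 bases of the Polr3k window, 148 of the Stx12 window and 238 of the Ptbp1 window. It entered from the far side in each case, so that the capitals stand at the 5′ end and the lower-case bases next to the gene start.

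Coding stretches of 2 pseudogenes and their parent genes are shown because loci on pseudogene exons were the most numerous and most abundant of the unnamed loci. Each pair is 90 bases long and comes from the GENCODE M21 transcripts, 5′ to 3′ along the transcript. The stretch was the gap-free one within the parent's coding sequence with the most differences, and the capitals mark the bases that differ.
Gm8730, bases 358 to 447: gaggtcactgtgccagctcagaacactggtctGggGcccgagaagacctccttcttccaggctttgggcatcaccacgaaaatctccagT
Rplp0, bases 479 to 568: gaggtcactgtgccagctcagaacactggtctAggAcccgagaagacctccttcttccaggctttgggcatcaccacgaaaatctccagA
Rps19-ps1, bases 317 to 406: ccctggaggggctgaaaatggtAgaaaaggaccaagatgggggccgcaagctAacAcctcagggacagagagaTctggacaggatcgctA
Rps19, bases 473 to 562: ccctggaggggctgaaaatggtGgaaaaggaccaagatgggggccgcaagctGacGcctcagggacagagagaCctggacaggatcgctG
Gm8730, a copy of the ribosomal stalk protein gene Rplp0, differed at 3 of these 90 bases and at 12 of 954 aligned bases in all. Rps19-ps1 differed from Rps19 at 5 bases of the stretch and at 8 of 438 in all, and Rps19-ps2 had the same stretch. How the authors' counting shared reads between such copies and their parents is not given in the sources used here, so the levels of these loci are uncertain.

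Mature microRNAs are shown for the hairpins that lay inside unnamed loci and are referred to below. The sequences are RefSeq's, 5′ to 3′, with the seed (bases 2 to 8) in capitals.
miR-34a-5p: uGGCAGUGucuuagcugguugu
miR-221-3p: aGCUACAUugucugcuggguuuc
miR-222-3p: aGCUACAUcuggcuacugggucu
miR-92a-3p: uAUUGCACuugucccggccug
miR-363-3p: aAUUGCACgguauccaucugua
miR-322-5p: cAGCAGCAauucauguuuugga
miR-503-5p: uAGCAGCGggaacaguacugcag
miR-221-3p and miR-222-3p shared one seed, and miR-92a-3p and miR-363-3p shared another. The remaining 3 each had a seed of their own among the hairpins found.

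Each column held 31361518 to 32562075 estimated counts and combined both samples of a group, so spread between replicates is not visible and no test across replicates was possible. A difference below is called where FPKM, with 0.1 added, changed at least 1.5-fold and the intervals deposited with the values did not overlap. In bulk samples fewer cells of a type and less RNA per cell cannot be told apart. All 8 eye field and retinal progenitor markers were at 1 FPKM or more, with a summed level of 664 FPKM at 0 h, 836 at 8 h and 887 at 24 h. All 5 pluripotency markers were also above 1 FPKM (summed level 86.9, 81.5 and 81.6), as were 2 of 5 mesoderm and endoderm markers. Of 4 neuronal markers Dcx and Isl1 were below 1 FPKM, and Tubb3 and Elavl3 had no row under their name alone. The telencephalon marker Emx2 was at 20.7 FPKM at 0 h and 22.5 at 8 h, and at 21.6 at 24 h. The part of these marker levels in the results below was not tested. Mettl3 RNA, which the degron does not target, was 19.4 FPKM at 0 h and 19.4 at 8 h in the 8 h table, and 19.4 against 17.0 in the 24 h table.

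The unnamed loci were short, low and numerous. They held 0.855% to 0.942% of all estimated counts in a column, and the 10 most abundant held 25.7% to 27.6% of that. Their median level at 0 h was 3.12 FPKM in the 8 h table, against 14.1 FPKM in 12193 named loci that passed the same limits, and their median estimated count was 37.9 against 1134. The deposited standard deviation of the count was a median of 24.5% of the count in unnamed loci and 10.5% in named loci, so the intervals were wide and only large changes could be called. At 8 h, 1062 of the 1247 loci had a position of their own, with a median length of 662 bases, and 1024 of them had a single start site. The other 185 shared their position with further rows, and for these the position belongs to the group of rows. Chromosome 12 held 103 of the 1247 loci, the most of any chromosome, and the X chromosome held 93.

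Most of the loci with their own position lay on pseudogenes (GENCODE M21, GRCm38). At 8 h, 606 of 1062 (57.1%) overlapped an exon of a pseudogene, 574 of these a processed one, and in 677 of all 679 loci on annotated exons the name of that gene was used by no other row of the table. A further 134 loci (12.6%) lay within 10 kb downstream of the nearest gene and 108 (10.2%) within 10 kb upstream. That gene could be of any kind, and it was a processed pseudogene for 56 of the downstream and 14 of the upstream loci. Another 126 (11.9%) lay farther from any gene, 52 (4.90%) on exons of lncRNAs and 14 (1.32%) in introns. Loci on pseudogenes held 54.2% of the estimated counts of the unnamed loci at 0 h. Loci downstream of genes held 7.39%, those on lncRNA exons 6.51% and the loci farther from genes 10.8%. The pseudogene loci were short, with a median of 635 bases, and the lncRNA loci were longer, with a median of 3256 bases.

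**Figure D1:**
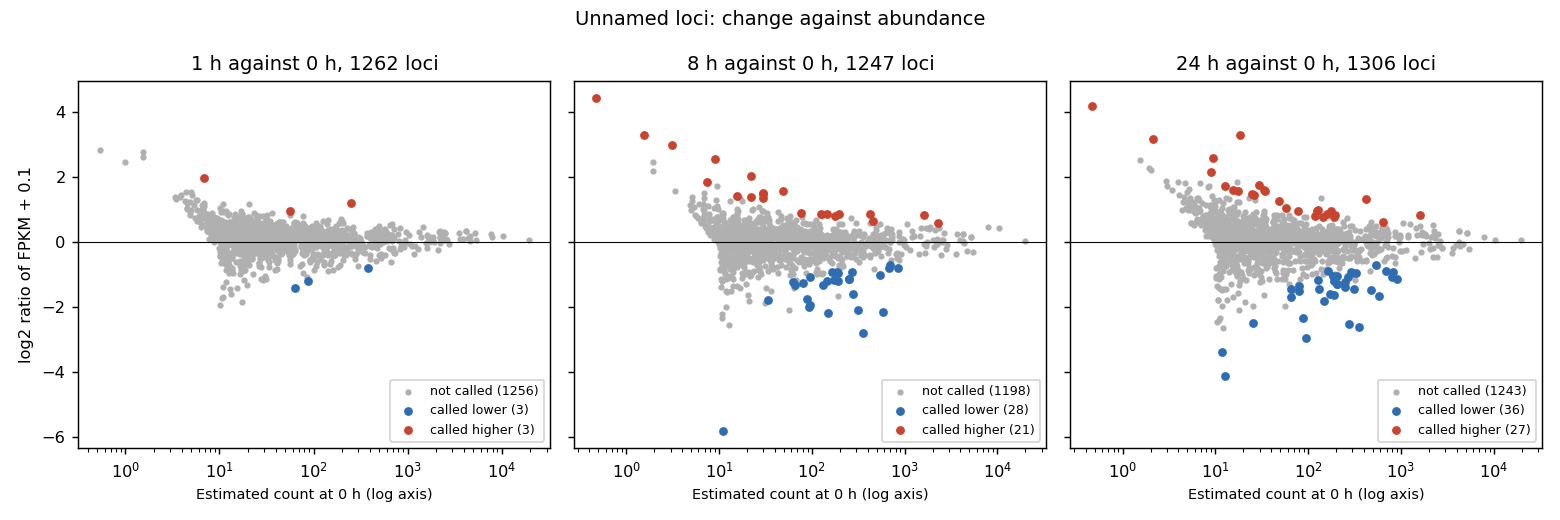
Each point is an unnamed locus at 1, 8 or 24 h, with its estimated count at 0 h on a log axis and its log2 ratio of FPKM + 0.1 on the vertical axis, and colours mark loci called higher or lower. The points fan out at counts near 10, and the called loci number 6 at 1 h, 49 at 8 h and 63 at 24 h.

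Few unnamed loci were called, at a rate near that of all loci, and a larger part of the calls was lower. At 8 h 21 were called higher and 28 lower, together 3.93% of the 1247, and 4.43% of all 13440 loci that passed the limits were called. At 24 h 27 were called higher and 36 lower, 4.82% of 1306, beside 5.45% of 13512 loci. Of the calls, 42.9% were higher at 8 h and 42.9% at 24 h, while in named loci the share was 83.4% at 8 h and 72.7% at 24 h. Among all loci, the share called higher was 3.55% at 8 h and 3.82% at 24 h, and the share called lower was 0.885% and 1.63%. Among named loci alone 4.49% were called at 8 h (3.74% higher, 0.746% lower) and 5.51% at 24 h (4.01% higher, 1.51% lower). The rate moved with the count, taken in whichever condition of the table it was larger. Among the 407 unnamed loci with such a count of at least 100, 7.62% were called at 8 h, against 4.70% of such named loci. At 24 h it was 10.8% against 5.79%. Because the count with dTAG-13 was also used, these sets are not divided by level at 0 h alone. Under 100 counts in both conditions 2.14% of the unnamed loci were called at 8 h and 2.02% at 24 h. These differences in rate and direction were not tested, because loci are not replicates. The 8 h and 24 h comparisons share their 0 h samples.

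Part of what was called is tied to how the loci passed the limits. At 1 h 982 passed in both conditions, with none called higher and 1 lower, and the 3 higher calls and 2 of the 3 lower came from loci that passed in a single condition. At 8 h 926 of the 1247 passed in both conditions, and among them 8 were called higher and 11 lower. Another 176 passed only at 0 h, with 17 called lower, and 145 passed only at 8 h, with 13 called higher; the members of these last sets could only differ in that direction. At 24 h 941 passed in both conditions, with 11 called higher and 17 lower. For 1, 8 and 24 h the median log2 ratio of the unnamed loci was 0.13, 0.01 and 0.12, and that of all loci was 0.01, 0.01 and 0.02. At the edge of the rule, the lowest FPKM that brought a locus in at 8 h was 1.00 and the highest that left one out was 0.999.

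**Figure D2:**
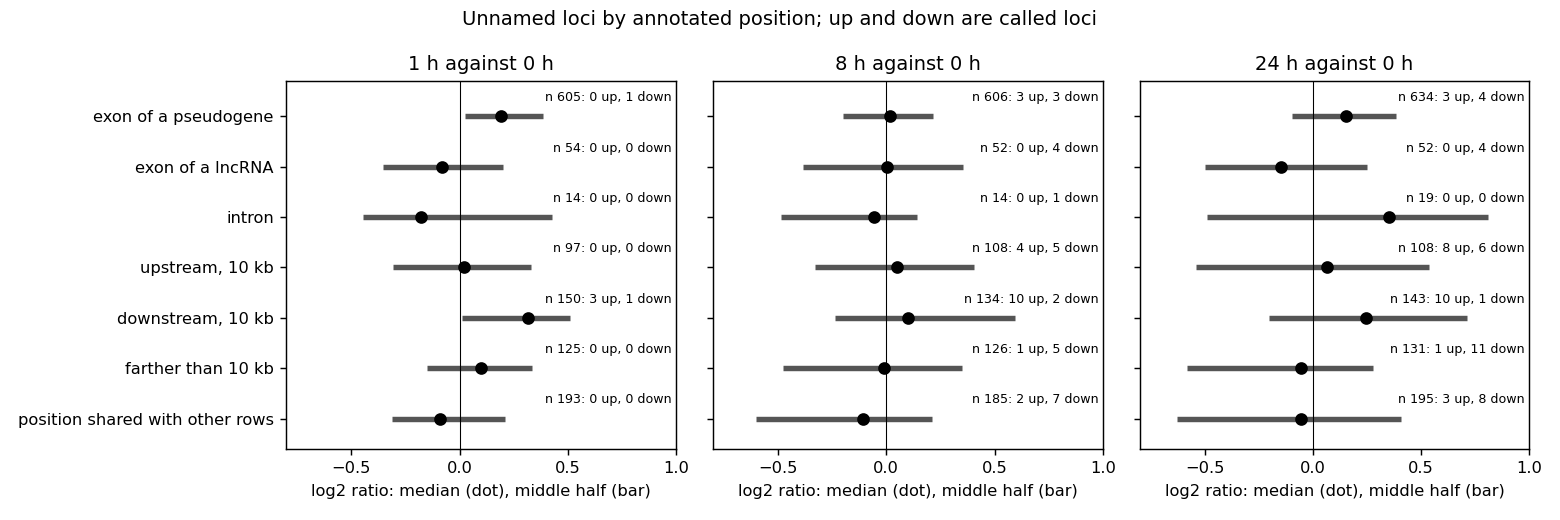
Unnamed loci are grouped by annotated position for each time, with the median log2 ratio of FPKM + 0.1 (dot), the range between the quartiles (bar) and the number of loci called higher (up) and lower (down). Loci downstream of genes had 10 called higher and 2 lower at 8 h, and loci farther than 10 kb from genes had 1 and 5.

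By position, the called loci divided as follows; these are counts, and no difference between positions was tested. At 8 h those downstream of genes had 10 higher and 2 lower calls, and at 24 h they had 10 and 1. On lncRNA exons none was called higher and 4 were called lower at each of these times. Farther than 10 kb from any gene the 8 h calls were 1 higher and 5 lower, and the 24 h calls 1 and 11. Upstream of genes the calls were mixed, 4 higher against 5 lower at 8 h, then 8 against 6 at 24 h. On pseudogene exons, where most loci lay, 3 were called higher and 3 lower of 606 at 8 h, and 3 and 4 of 634 at 24 h. Among the loci that shared a position with other rows, 2 were called higher and 7 lower at 8 h. Over all loci that passed the limits the share called higher was 3.55% at 8 h against 0.885% lower, and 3.82% at 24 h against 1.63%. Most of the calls downstream of genes came from loci that passed only with dTAG-13, so their direction follows from the limits. Of those downstream loci that passed in both conditions, 2 of 78 were called higher and none lower at 8 h, and 3 of 79 and none at 24 h. Of the loci farther than 10 kb from genes that passed in both, none was called higher and 1 of 90 lower at 8 h, and 1 and 6 of 86 at 24 h. On lncRNA exons 1 of 31 that passed in both was called lower at each time, and upstream of genes 3 of 65 were called lower and none higher at 8 h.

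Loci that ended just upstream of a protein-coding gene were mostly lower where they were called. At 8 h, 80 unnamed loci ended between 1 kb before and 300 bases after the annotated start of such a gene without reaching further into it. Of these, 7 were called lower and 1 higher at 8 h, and at 24 h 6 of 77 were called lower and 1 higher. Over all loci the shares were 0.885% lower and 3.55% higher at 8 h, and 1.63% and 3.82% at 24 h. Of the 45 that passed in both conditions at 8 h 3 were called lower and none higher, and of 41 at 24 h again 3 and none, while the other lower calls came from loci that passed only at 0 h. The locus before Polr3k, a subunit gene of RNA polymerase III, lies at chr2:181860503-181864226 and ends 111 bases from the gene, within the promoter window printed above. It measured 4.92 FPKM at 0 h (deposited interval 3.85 to 6.00) and 1.04 at 8 h (0.724 to 1.36), and 4.94 at 0 h and 1.51 at 24 h (1.09 to 1.93) in the 24 h table. Its log2 ratio was -2.14 at 8 h and -1.65 at 24 h, with estimated counts of 579 at 0 h and 122 at 8 h. Polr3k itself measured 29.1 FPKM at 0 h and 27.3 at 8 h, and 29.2 and 29.5 in the 24 h table, a log2 ratio of -0.09 and 0.02.

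The locus before Stx12, a gene for a syntaxin of the endosome, was called lower at all 3 times. It lies at chr4:132884561-132885991 on an exon of the pseudogene Gm13033, 52 bases from the Stx12 start, and had the same position in all tables. Its level was 2.26 FPKM at 0 h and 0.939 at 1 h. In the 8 h table it was 2.29 at 0 h and 0.604 with dTAG-13, and in the 24 h table it was 2.30 and 0.372, for log2 ratios of -1.18, -1.76 and -2.34. Stx12 had log2 ratios of 0.07, -0.08 and 0.03 at these times. With dTAG-13 the locus was under 1 FPKM at each time. It passed the limits only at 0 h and could only be called lower. The 1 h value came from a table assembled apart from the others, although the 0 h samples are the same in all of them.

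Next to Ptbp1, which encodes a splicing repressor, the locus at chr10:79849504-79854419 overlapped exons of the lncRNA E130317F20Rik and ended 8 bases from the Ptbp1 start. Its level was 1.64 FPKM at 0 h and 0.697 at 8 h, and 1.65 and 0.655 in the 24 h table, with log2 ratios of -1.13 and -1.21. Ptbp1 stood at 262 FPKM at 0 h and 207 at 8 h, a log2 ratio of -0.34, and did not meet the call. The locus before Sema4c, a semaphorin gene, lay on the lncRNA D430040D24Rik and had log2 ratios of -1.32 and -1.43, while Sema4c had 0.45 and 0.35. In both comparisons the loci before Ptbp1 and Sema4c passed the limits only at 0 h, so they could only be called lower. Before Bicra, a subunit gene of a SWI/SNF chromatin remodelling complex, the locus went from 9.97 FPKM at 0 h to 3.98 at 8 h (log2 ratio -1.30, and -1.44 at 24 h). Before Kpnb1, the importin beta gene, it went from 6.27 to 3.24 FPKM (-0.93, and -0.88 at 24 h).

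One locus of the group depended on the unit. Before Nepro, which encodes a nucleolar protein, the locus measured 1.60 FPKM at 0 h and 0.648 at 8 h (log2 ratio -1.19), but its estimated count was 147 and 108. In the 24 h table it did not meet the call (-0.97). In the 8 h table the Nepro locus passed the limits only at 0 h, so it could only be called lower. The single locus called higher at 8 h lay 392 bases before Ndnf, a secreted neurotrophic factor gene, at 0.340 FPKM at 0 h and 1.02 at 8 h. At 24 h the single one called higher lay 207 bases before Rims2, a synaptic gene, at 0.892 and 1.63 FPKM, and Rims2 itself measured 6.23 and 12.1 FPKM. In these comparisons the loci before Ndnf and Rims2 passed the limits only with dTAG-13, so they could only be called higher.

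**Figure D3:**
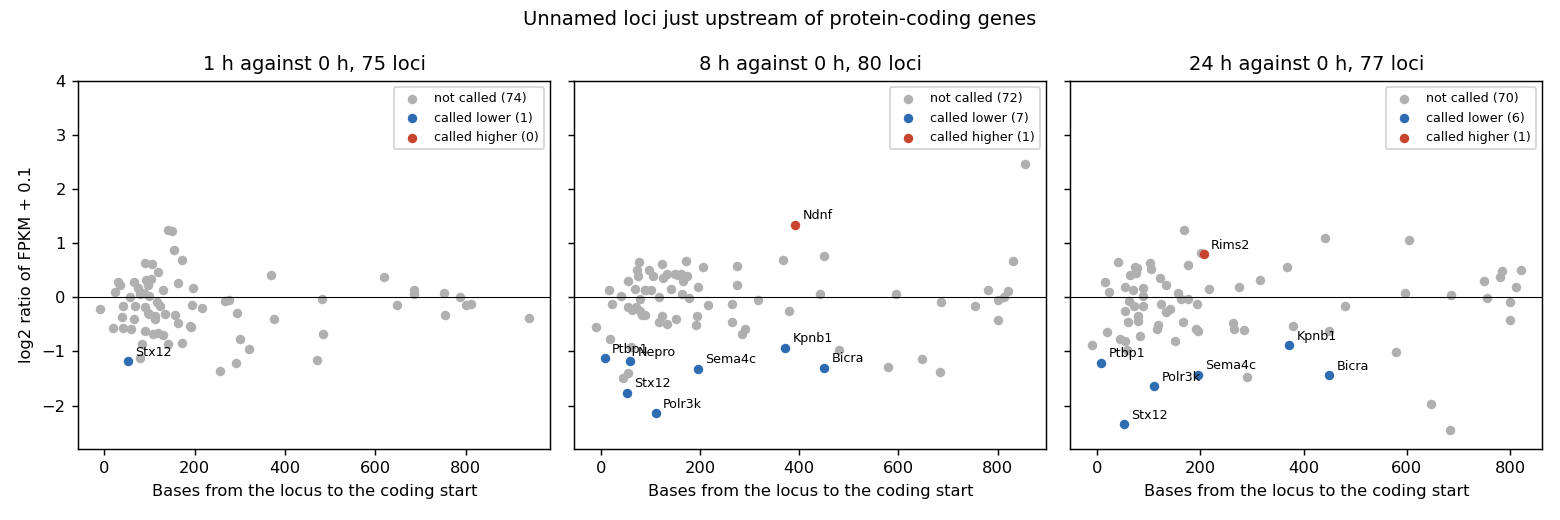
Each point is an unnamed locus that ended near the start of a protein-coding gene, with the distance in bases from the locus to that start and the log2 ratio of FPKM + 0.1 at 1, 8 and 24 h. Called loci carry the name of the neighbouring gene, and the loci before Polr3k and Stx12 were at -2.14 and -1.76 at 8 h.

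RefSeq listed a promoter for the neighbouring gene of 54 of the 80 loci at 8 h. The listed promoter of that gene nearest to the locus was taken without a limit of distance. Some windows, such as those of Slc3a2 and Zfp607b, therefore lay away from the start beside the locus. The windows had a median GC content of 60.8% and a median of 17.5 CpG dinucleotides in 250 bases. In all 32851 listed promoters, which were not matched for level, kind of gene or GC content, these were 52.4% and 6. The windows are promoter DNA and not RNA of the unnamed loci, and some, such as that of Kpnb1, lay wholly outside the locus. How far the motif shares below go with GC content was not tested. The polyadenylation signal AATAAA, searched on both strands, occurred in 4 of the 54 windows (7.41%) and in 18.1% of all windows. GGACT, a frequent context of m6A, occurred on either strand in 61.1% of the 54 and 38.9% of all, GGACC in 59.3% and 39.8%, and a run of 10 A in none and 4.42%. For the 5 of these genes whose locus was called lower at 8 h, the median GC content was 64.4%, and none of the windows held AATAAA.

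On lncRNA exons 4 loci with a position of their own were called at 8 h and at 24 h. Rows with a shared position are not in this count. Of those, a row whose position overlaps the lncRNA C330024D21Rik was called lower at 8 h (log2 ratio -0.92) and 24 h (-1.07). Another, at the lncRNA B130034C11Rik, was called lower at 24 h (-1.28). Gm13421, a lncRNA annotated near Wdr5, overlapped the locus at chr2:27540334-27546083, which measured 2.65 FPKM at 0 h (1.98 to 3.31) and 0.550 at 8 h (0.350 to 0.751), and 2.66 and 0.911 in the 24 h table. The log2 ratio was -2.08 at 8 h and -1.45 at 24 h, and that of Wdr5, which encodes a core subunit of histone methyltransferase complexes, was -0.09 and -0.15. AI506816 overlapped the locus at chr5:23698409-23700362, the most abundant called lower, with 30.2 FPKM at 0 h, 17.5 at 8 h and 16.2 at 24 h (log2 ratio -0.78 and -0.90). A second unnamed locus on AI506816 exons, chr5:23709278-23712642, was not called and measured 1.89 FPKM at 0 h and 2.08 at 8 h, with log2 ratios of 0.13 at 8 h and -0.32 at 24 h. In the 1 h table a locus with the same end had 1.85 and 3.10 FPKM (0.71). The Gm13421 locus and the first AI506816 locus, with those next to Ptbp1 and Sema4c, were the 4 on lncRNA exons called at each time. All but the AI506816 locus passed the limits only at 0 h, so they could only be called lower.

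Several well-known non-coding RNAs were among the unnamed loci and did not meet the call. They were picked after their values had been seen. Snhg1, a host gene of small nucleolar RNAs, was at 136 FPKM at 0 h and 184 at 8 h, and at 136 and 160 in the 24 h table. Snhg5, another such host, was at 73.2 and 102 FPKM, and 73.4 and 83.9. Gas5, a growth arrest lncRNA and snoRNA host whose position was shared by a second row, was at 83.8 and 99.4 FPKM, and 84.1 and 74.5. Rn7sk, the 7SK RNA that restrains transcription elongation, was at 27.3 FPKM at 0 h and 52.0 at 8 h, and 27.4 and 49.3 in the 24 h table, with intervals that overlapped each time (15.3 to 39.3 against 34.3 to 69.7 at 8 h). Firre, an X-linked nuclear lncRNA, had 5 unnamed loci in the 8 h table whose positions overlapped its exons. The most abundant, and those with ratios of -0.53 and -1.14 at 8 h, had a position shared by 4 rows. Whether each of these rows itself overlaps Firre exons is therefore not known. The most abundant measured 16.9 FPKM at 0 h, with log2 ratios of -0.07 at 8 h and -0.17 at 24 h, and the other 4 had ratios of -0.44, -0.71, -0.53 and -1.14 at 8 h and -0.83, -0.85, -0.50 and -0.29 at 24 h. None of these intervals separated 0 h from the treated time.

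A locus that contains the Mir34a hairpin was called lower at 8 and 24 h. Mir34a is a microRNA gene known as a p53 target. The locus at chr4:150067956-150072089, which overlaps Gm37795, measured 4.08 FPKM at 0 h (3.18 to 4.98) and 1.98 at 8 h (1.49 to 2.48), and 4.10 and 2.50 (1.89 to 3.10) in the 24 h table. Its estimated count was 537 and 261 at 8 h, and the log2 ratio at 24 h was -0.69. In the 1 h table a locus with the same start measured 4.38 and 3.12 FPKM (-0.48) and did not meet the call. The values are those of the assembled locus, whose strand is not given in the sources used here, and the mature microRNA printed above was not measured.

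The other microRNA loci were not called, and 17 hairpins lay wholly inside the positions of 13 unnamed loci at 8 h. For Mir340, Mir674, Mir6382, Mir6976 and Gm24148 that position was shared with other rows. Those hairpins are placed in the group of rows and not in a given locus. The locus with Mir221 and Mir222, whose mature forms share a seed, was at 0.969 FPKM at 0 h and 1.61 at 8 h, and at 0.973 and 1.52 in the 24 h table. The locus with Mir322 and Mir503 was at 0.932 and 1.46 FPKM, and at 0.936 and 1.48, with log2 ratios of 0.60 and 0.61. The locus with Mir92-2 and Mir363, and with Mir20b and Mir19b-2, was at 1.22 and 1.66 FPKM, and at 1.22 and 1.92. It ended within the Mir18b hairpin. In the 1 h table a locus with the same end was at 1.25 and 0.513 FPKM, a log2 ratio of -1.14. In each case the deposited intervals overlapped.

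Downstream of genes 10 of the 12 called loci at 8 h were higher, of which 8 had passed the limits only with dTAG-13. Among the 10 called downstream loci whose nearest named gene reached 1 FPKM (8 higher, 2 lower) that gene was called for none at 8 h, and among the 10 at 24 h (9 higher, 1 lower) for 2. At 8 h 3 adjoining loci between the zinc finger genes Zfp282 and Zfp212, of which 2 are counted as downstream of Zfp282 and 1 as upstream of Zfp212, had the highest ratios of all called unnamed loci. The locus at chr6:47914368-47914808 measured 0.0864 FPKM at 0 h and 3.98 at 8 h (interval 1.54 to 6.42), and its estimated count was 0.470 and 21.1, at least 7.05-fold higher against a floor of 3 counts per column. The locus at chr6:47911375-47912876 measured 0.0377 and 1.27 FPKM (counts 1.55 and 52.5), at least 17.5-fold higher, and the locus at chr6:47912936-47914222 measured 0.0918 and 1.44 FPKM (counts 3.11 and 49.0). In the 24 h table the first was called at 3.29 FPKM, and the others stood at 0.645 and 0.773 FPKM, under the limit of 1 FPKM. Zfp282 measured 6.59 FPKM at 0 h and 9.32 at 8 h (log2 ratio 0.49), and Zfp212 measured 12.4 and 19.7 (0.67), which was called.

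**Figure D4:**
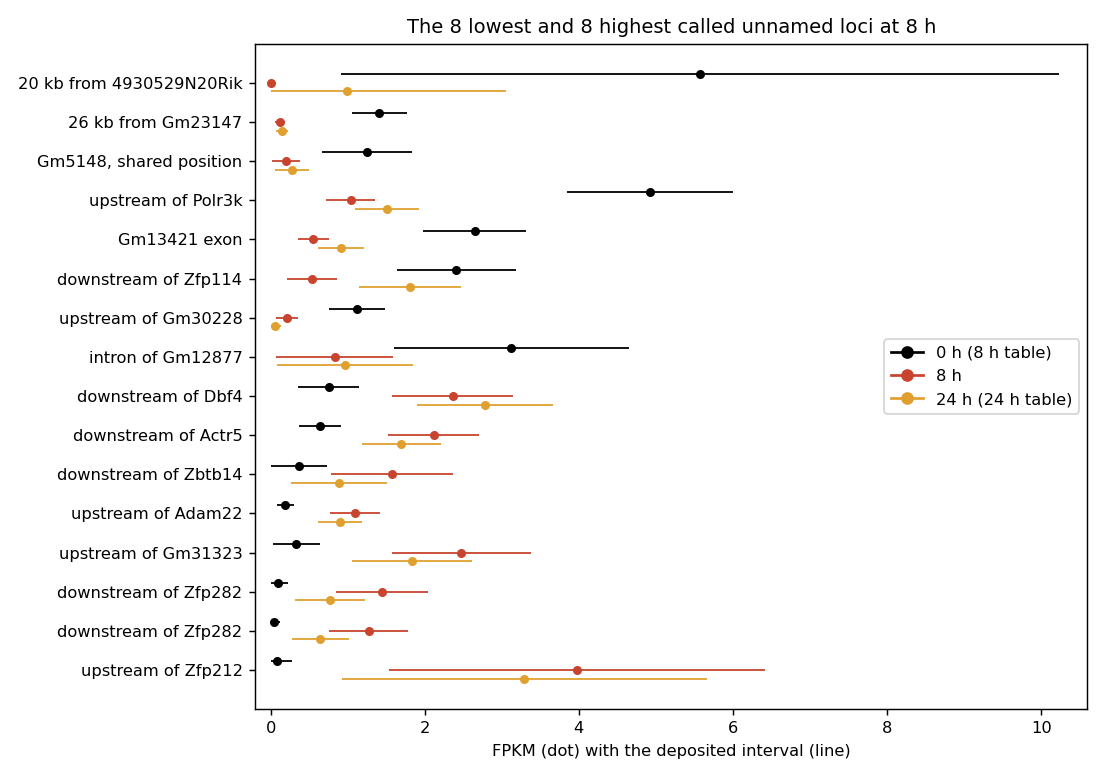
The 8 lowest and 8 highest called unnamed loci at 8 h are shown with FPKM (dots) and deposited intervals (lines) at 0 h, 8 h and 24 h, named by the annotated gene at or near them. The locus upstream of Polr3k was at 4.92 FPKM at 0 h and 1.04 at 8 h, and the locus upstream of Zfp212 was at 0.0864 and 3.98.

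Dbf4 encodes the activating subunit of a replication kinase. The locus 4910 bases past its end, chr5:8390617-8392063, measured 0.753 FPKM at 0 h (0.360 to 1.15), 2.36 at 8 h (1.58 to 3.15) and 2.78 at 24 h (1.90 to 3.66), for log2 ratios of 1.53 and 1.75. Dbf4 itself had log2 ratios of 0.55 and 0.54. Within 20 kb of it, the locus at chr5:8372564-8376304, nearest to the start of Adam22, was at 0.189 FPKM at 0 h and 1.09 at 8 h, and at 0.898 at 24 h, under the limit of 1 FPKM. Past Actr5, which encodes an actin-related subunit of the INO80 remodelling complex, the locus at chr2:158643443-158645976 measured 0.640 FPKM at 0 h, 2.12 at 8 h and 1.69 at 24 h, while Actr5 was at 8.88 at 0 h and 8.86 at 8 h. Past Tmem121, a membrane protein gene, the locus was at 0.391 FPKM at 0 h, 1.21 at 8 h and 1.41 at 24 h.

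Past Zbtb14, a zinc finger gene, the locus at chr17:69393631-69394519 was called at 8 h, with 0.364 and 1.58 FPKM and a log2 ratio of 1.85. Past Wnt5b, a Wnt ligand gene, the locus was at 1.87 FPKM at 0 h and 3.50 at 8 h, and 1.88 and 3.28 in the 24 h table. At 24 h a locus 2798 bases past Ythdf2, the gene of an m6A reader that promotes mRNA decay, was called at 0.689 FPKM at 0 h and 2.05 at 24 h (chr4:132180691-132182114, log2 ratio 1.44). Ythdf2 measured 42.8 and 83.8 FPKM, a log2 ratio of 0.97, which was called. At 8 h the same locus was at 0.975 FPKM and was not called.

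The downstream loci called lower at 8 h were at Fezf2 and Zfp114. Fezf2 encodes a forebrain transcription factor, and the locus 1163 bases past it measured 1.07 FPKM at 0 h and 0.403 at 8 h (log2 ratio -1.22), and -0.63 at 24 h, which did not meet the call. Fezf2 itself had a log2 ratio of 0.52 at 8 h. Past Zfp114 the locus at chr7:24185936-24187564 was at 2.41 and 0.533 FPKM at 8 h (-1.99) and -0.40 at 24 h.

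Loci farther than 10 kb from annotated genes held the most negative ratio at 8 h and at 24 h. At chr3:6297447-6312655, a locus of 15209 bases lying 26227 bases from the nearest annotated gene, the level was 1.41 FPKM at 0 h (1.05 to 1.76), 0.117 at 8 h (0.0536 to 0.181) and 0.147 at 24 h (0.0708 to 0.224). Its estimated count was 355 at 0 h and 29.3 at 8 h, and the log2 ratio was -2.796 at 8 h and -2.61 at 24 h. At chr2:80804850-80810523 the level was 1.52 FPKM at 0 h, 0.437 at 8 h and 0.185 at 24 h, for log2 ratios of -1.60 and -2.51. The most negative ratio at 8 h came from a locus of 315 bases at chr13:35146442-35146756 with an estimated count of 10.99 at 0 h and 0 at 8 h, at least 3.66-fold lower against the floor of 3 counts. At 24 h a locus of 523 bases at chr1:122675676-122676198 had counts of 12.8 and 0, at least 4.27-fold lower.

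Among loci upstream of non-coding genes, the locus at chr10:27815073-27817870, 5449 bases before Gm30228, was at 1.12 FPKM at 0 h and 0.218 at 8 h, and at 1.13 and 0.0585 in the 24 h table (log2 ratios -1.95 and -2.95). The locus at chr16:94481352-94482440, 6337 bases before Gm31323, went the other way, with 0.333 and 2.47 FPKM at 8 h and 0.334 and 1.84 at 24 h. The locus at chr12:85081250-85081754, before Prox2os, was called lower at 24 h with estimated counts of 11.7 and 0.475, at least 3.91-fold lower, and Prox2os, an antisense RNA gene, had a log2 ratio of -2.11. The locus at chr2:73811881-73812921, downstream of Gm13640, had counts of 25.5 and 2.47 at 24 h, at least 8.52-fold lower. In the intron of Gm12877 the locus at chr4:122597066-122597679 was at 3.13 FPKM at 0 h and 0.829 at 8 h. The locus chr3:37668713-37740080, shared by 10 rows, had a row at 1.25 and 0.197 FPKM at 8 h and at 1.25 and 0.282 at 24 h.

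Some loci were called only in the 24 h table, and whether the 8 h and 24 h values differ was not tested. The locus at chr8:69360170-69362622, past the lncRNA Gm10033, was at 0.619 FPKM at 0 h and 0.965 at 8 h, and at 0.621 and 7.02 (4.74 to 9.31) at 24 h, a log2 ratio of 3.30. A locus before Srgap1, a gene for a regulator of small GTPases, was at 0.249 and 0.191 FPKM at 8 h and at 0.250 and 2.01 at 24 h. The locus at chr3:19911479-19913767, 29 bases before Gm37523, had estimated counts of 2.15 and 73.8 at 24 h, at least 24.6-fold higher. The locus at chr11:46447485-46448597, before 2310031A07Rik and 4764 bases from the Mediator subunit gene Med7, was at 0.464 and 1.78 FPKM, and Med7 was at 35.8 and 72.5.

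Loci on pseudogene exons were set beside the genes they are copied from. A parent was found for 590 of the 606 loci at 8 h by sequence search, and for 542 of them the parent had a single named row. Across these 542 loci the Spearman correlation between the log2 ratio of the locus and that of its parent was 0.44 at 8 h (Pearson 0.49). It was 0.13 over 534 loci at 1 h and 0.39 over 557 at 24 h. The points share libraries, 542 loci had 264 distinct parents, and reads of near-identical copies can be shared, so these are descriptions. The median identity to the parent was 96.8% and the median level was 4.21 FPKM in the loci and 632 FPKM in the parents. With a ribosomal protein parent (222 loci) the correlation at 8 h was 0.15, and with another parent (320 loci) it was 0.50.

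**Figure D5:**
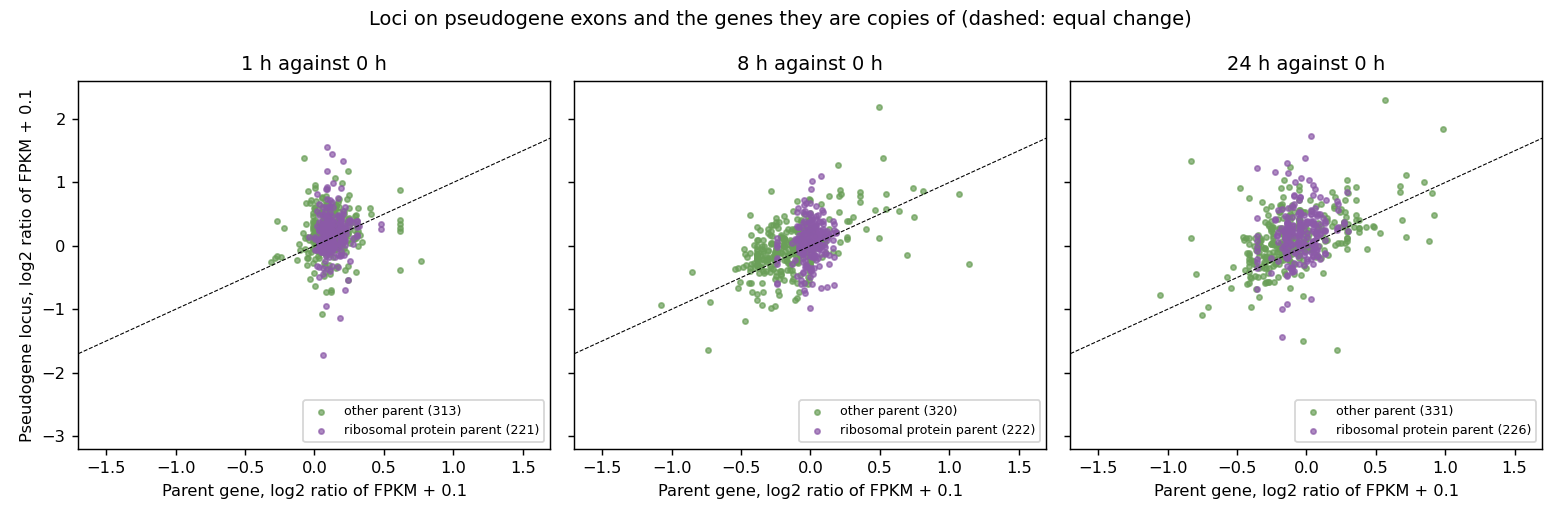
Each point is an unnamed locus on a pseudogene exon, with the log2 ratio of FPKM + 0.1 of its parent gene on the horizontal axis and its own on the vertical axis, at 1, 8 and 24 h. The Spearman correlation was 0.13, 0.44 and 0.39, and ribosomal protein parents lie close to 0 on the horizontal axis.

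The most abundant unnamed locus was Gm8730, at chr8:102864871-102865935, with estimated counts of 19847 at 0 h and 20272 at 8 h and log2 ratios of 0.03 at 8 h and 0.06 at 24 h. The Rps19 copies Rps19-ps1 and Rps19-ps2 had 4235 and 4234 at 0 h, and 5010 and 5010 at 8 h. The Gapdh copies Gm11185 and Gm12416 had 2210 and 2220 at 0 h. These pairs were picked because their counts lay within 1% of each other in both conditions, so that closeness is not a result. At chr10:42052543-42055474 Gm9855, a copy of the thymine DNA glycosylase gene Tdg, had a log2 ratio of -0.30 at 8 h, and Tdg had -0.38.

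For parents with several copies, the median of the copies and the parent can be set side by side, and they differed in sign for several. The 9 loci copied from Gapdh, a glycolytic enzyme gene, had a median log2 ratio of 0.03 at 8 h and Gapdh had -0.19, and at 24 h the values were 0.25 and -0.12. The 7 copies of Ldha, the lactate dehydrogenase A gene, had a median of -0.16 and Ldha had -0.39, and 0.02 and -0.09 at 24 h. The 8 copies of Odc1, which encodes the first enzyme of polyamine synthesis, had a median of -0.09 and Odc1 had -0.25, and at 24 h 9 copies had 0.32 and Odc1 -0.05. The 7 copies of H3f3a, a histone H3.3 gene, had 0.07 and H3f3a had -0.21, and the 8 copies of Hspa8, a chaperone gene, had 0.13 and Hspa8 had -0.07. The 7 copies of Pkm, the pyruvate kinase gene, had -0.08 and Pkm had -0.38 at 8 h, and 0.27 and -0.26 at 24 h. Over all pairs at 24 h the median was 0.14 in the loci and -0.10 in the parents. At 8 h the 10 copies of Rpsa, a ribosomal protein gene, had 0.13 and Rpsa had 0.06. Of the pseudogene loci called at 8 h, Gm21168, a copy of the ribosome biogenesis gene Rrs1, was at 5.09 FPKM at 0 h and 9.38 at 8 h (log2 ratio 0.87), and Rrs1 had 0.81. Gm6755, a copy of the autophagy gene Nrbf2, was at 3.49 and 6.21 FPKM (0.81), and Nrbf2 had 0.54. Zfp36l1-ps, a copy of the mRNA decay factor gene Zfp36l1, was called at 24 h at 6.51 and 2.23 FPKM (-1.50), while Zfp36l1 had -0.03.

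The abundant loci outside annotated exons were short. The locus at chr3:5860318-5860891, 19941 bases from the nearest annotated gene, had counts of 10419 at 0 h and 14020.0 at 8 h and did not meet the call (log2 ratio 0.43). The locus at chr11:109011645-109012151 had 7919 and 10858 (0.46). FPKM is largest in the shortest loci: the locus at chrX:4136295-4136402, 108 bases long, had 43065 FPKM at 0 h from an estimated count of 37.7, and the locus at chr1:136364889-136365011, 123 bases long, had 42985 FPKM from a count of 110. The longest locus, 429356 bases at chr13:28456034-28885389 on the lncRNA 2610307P16Rik, was at 4.72 FPKM at 0 h and 4.23 at 8 h, with counts of 253 and 327.

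Outside exons, the change of a locus said little about that of the nearest gene. Across 126 loci within 10 kb of a named gene of at least 1 FPKM, the Spearman correlation of the log2 ratios was 0.25 at 8 h (Pearson 0.27). It was 0.08 over 124 loci at 1 h and 0.21 over 127 at 24 h, and loci near one gene can share its transcripts. Of the 18 such loci called at 8 h, the neighbouring gene was called in the same direction in 1, and of the 19 called at 24 h in 4.

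At 1 h 3 unnamed loci were called higher and 3 lower, 0.475% of 1262, and 0.248% of all 13301 loci were called (0.0301% higher, 0.218% lower). Among the 12039 named loci it was 0.224% (0.00831% higher, 0.216% lower). The locus 3785 bases past Ccdc59, chr10:105851618-105852619, was at 0.283 FPKM at 0 h and 1.42 at 1 h (log2 ratio 1.99), from estimated counts of 6.84 and 34.6. The locus past Zfp292, chr4:34789361-34800594, was at 0.673 and 1.68 FPKM (1.20), and the locus past Svopl, chr6:37979460-37982499, at 0.595 and 1.26 (0.97). The lower ones were the locus past Fezf2, chr14:12338873-12341028, with 1.01 and 0.320 FPKM (-1.41), the locus before Stx12 described above, and the locus on Gm42547, chr6:28211110-28215523, with 2.71 and 1.51 FPKM (-0.81). Zfp292, Ccdc59 and Fezf2 had log2 ratios of -0.01, -0.02 and 0.00 at 1 h. With 1 FPKM added in place of 0.1, the loci past Svopl and on Gm42547 no longer met the call (0.51 and -0.57).

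One unnamed locus lay on a sequence that the tables call common_exogenous, at bases 2001 to 2769, and what that sequence holds is not given in the sources used here. It measured 140 FPKM at 0 h and 151 at 8 h, and 140 (113 to 168) and 202 (162 to 241) in the 24 h table, where the intervals overlapped. In the 1 h table it was at 138 and 137 FPKM. Rax, the gene that carries the reporter, was at 49.7 and 67.1 FPKM at 8 h, and at 49.9 and 78.6 at 24 h, where it was called higher with a log2 ratio of 0.66.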

How the data were processed

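Polyadenylated RNA of the 8 samples was measured by paired-end RNA-seq, and samples were grouped by their titles. Per the submitters' processing notes the data were processed with Cufflinks 2.2.1 and Cuffdiff on mm10. The aligner, the use of strand and the level of the intervals are not given in the sources used here. The authors deposited FPKM values with interval bounds, and estimated counts with their variance, for each of 1, 8 and 24 h against 0 h. Both hold 1 column per condition, per the file headers, so the replicates were combined by the authors and no test was possible. The deposited variance of the estimated count served only for its standard deviation, and precision is that of the deposited intervals.

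Ratios were formed within a table as log2((FPKM + 0.1)/(FPKM at 0 h + 0.1)), a scale that shrinks the changes of low loci. A locus was called at 1.5-fold or more with intervals that did not overlap. Starts were counted from 1 by adding 1 to the deposited start. Positions came from GENCODE M21 (GRCm38), any overlap of 1 base counting as an exon. Parents of pseudogenes were the best protein-coding transcript in a BLAST 2.17.0 search with at least 80% identity over 50% of the length. No genome sequence was used, so the planned sequences, GC content and repeats of the loci were not computed, and promoter and transcript sequences are shown in their place. The call rule was tested on simulated data, in which both noise and intervals came from the deposited variance of the count. Spread between replicates was not simulated, so that test cannot show how reliable the calls in these combined columns are. Loci named are the 8 highest and 8 lowest called at each time, the 5 highest by FPKM and by count, the longest, and others chosen after their values were seen. The members and lists were chosen with earlier results of these data known. Python 3.11.15, pandas 2.3.3, numpy 2.4.6 and scipy 1.17.1 were used.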

Additional observations from a re-analysis of the deposited data

How the results depend on the processing

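No paired analysis was possible because each column combines both replicates, and for the same reason no replicate could be left out and no replicate block was fitted. The alternatives with an estimated count of at least 30 and with loci of their own position were added after seeing the data. Called loci numbered 6 at 1 h, 49 at 8 h and 63 at 24 h. Without the FPKM limit there were 29, 153 and 224, with a limit of 5 FPKM 0, 11 and 14, and by fold alone, without the intervals, 217, 274 and 397. Without the count limit 21 were called at 1 h. Without loci on annotated exons 31 of 405 were called at 8 h (7.65%) and 41 of 423 at 24 h (9.69%). The rates were 3.93% and 4.82% in all unnamed loci, and 4.43% and 5.45% in all loci that passed the limits. Part of this follows from the limits: 8 of the 10 higher calls downstream of genes at 8 h had passed only with dTAG-13. The difference in rate was not tested. The remaining settings left the numbers of called loci within 1.5 times. The median log2 ratio at 8 h was 0.01, and -0.0924 without the FPKM limit and -0.0154 without the count limit, so its sign rests on the limits; at 24 h it was 0.12, and 0.0124 without the FPKM limit. Over all loci within 10 kb of a named gene the Spearman correlation with that gene was 0.01, 0.20 and 0.10 for 1, 8 and 24 h. At 1 h it was 0.32 with a limit of 5 FPKM, -0.0029 without the count limit and -0.0642 with a count of at least 30. At 24 h it was -0.0014 with a limit of 5 FPKM and 0.21 without loci on exons. The cause of these shifts was not tested. The share of loci downstream of a gene at 8 h was 12.6%, 10.3% with a limit of 5 kb and 15.3% with protein-coding genes only. The 38 named ratios with the largest changes, all of called loci, were recomputed wherever an alternative retained the locus. No alternative changed the direction, 289 recomputed ratios kept their call, and 3 no longer met it. These were Svopl and Gm42547 at 1 h with 1 FPKM added, and Prox2os at 24 h (log2 ratio -3.11) with estimated counts in place of FPKM. Alternatives that only moved a limit or left out loci could not alter a ratio or call, so many of the 289 were fixed in advance. With a limit of 5 FPKM only 2 of the 38 loci remained.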
